A study of Mus musculus with 18 samples.

Results

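Chronic restraint stress, in which mice are held confined, was compared with no stress in the liver and the testis, and the quantity of interest here is how far the stress effect differed between these organs. For each gene the log2 fold change of stress over control was fitted in liver and in testis, and the difference is the liver value minus the testis value, the interaction of treatment and tissue. It was tested in 12952 genes, those of 34932 in the deposited table that passed a low-count filter in both tissues, over 12 of the study's 18 RNA-seq libraries. The 4 groups of 3 libraries each were control liver, stress liver, control testis and stress testis. The labels give tissue and treatment (control or CRS, for chronic restraint stress) and the series' description calls the 3 samples of a group biological replicates, while the sources used here give no strain, age, genotype or schedule of restraint. Bulk tissue was sequenced, so fewer cells of a type and less RNA per cell cannot be told apart in any value below.

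Restraint stress activates the hypothalamus, pituitary and adrenal cortex, which release glucocorticoids into the blood. In liver cells the glucocorticoid receptor moves to the nucleus and switches on genes such as Fkbp5, Tsc22d3 and Per1, and with insulin, feeding and the clock it helps set glucose, lipid and sterol synthesis. In the testis the same hormones reach Leydig, Sertoli and immune cells, while most of the RNA comes from germ cells behind the barrier that Sertoli cells form.

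Total counts ranged from 29.95 to 35.1 megacounts in the liver libraries and from 27.85 to 33.48 megacounts in the testis libraries. Marker genes matched the tissue labels. The 16 hepatocyte markers summed to at least 102500 CPM (counts scaled to library size) in every liver library and to between 17.26 and 25.85 CPM in testis, and Alb, the albumin gene, was at 0 in 5 of the 6 testis libraries. The 21 markers of elongating spermatids summed to at least 28710 CPM in testis and to between 12.52 and 14.92 CPM in liver, with control and stress liver in the same range, and Acrv1, an acrosome gene, was at 0 in all 6 liver libraries. Stress testis replicate 2 stood apart from the other 5 testis libraries. Its 22 Sertoli cell markers, some of which liver also expresses, summed to 2964 CPM against 1719 to 1788, its macrophage markers to 196.5 against 103.2 to 114.7, and its spermatogonial markers to 687.3 against 884.1 to 958.4. Its neutrophil list summed to 424.1 CPM against 80.8 to 102.3, of which Lcn2 gave 382, while S100a8, a defining neutrophil gene, was at 0 in all 6 testis libraries.

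The stress effect differed between the organs in 110 of 12952 genes at a Benjamini-Hochberg adjusted p under 0.05 in edgeR's quasi-likelihood test, or 0.849% of the genes tested. It was higher in liver than in testis in 59 genes (0.456%) and lower in liver in 51 (0.394%), and 43 genes in each direction differed by at least 2-fold. At an unadjusted p under 0.05 there were 2275 genes, where 5% of those tested is 647.6. Of the 110 genes called, 100 had passed in liver. Of the 59, 52 had risen in liver and did not pass in testis, and of the 51, 47 had fallen in liver and did not pass in testis. The median higher gene had a liver log2 fold change of 1.09 and a testis value of -0.22, and the median lower gene had -1.23 and 0.25. In testis, 4 of the 110 passed on their own, among them Afm, Fras1 and Tmem37, and no gene passed in opposite directions in the 2 tissues. The remaining 7 passed in neither tissue but passed as a difference.

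In the same fit over 12 libraries, liver alone had 807 genes past the threshold (6.23%), 399 higher (3.08%) and 408 lower (3.15%), and testis alone had 5 (0.0386%), 3 higher (0.0232%) and 2 lower (0.0154%). The liver fit by itself, without the testis libraries, called 146 higher and 118 lower. Of the 807 liver genes, 100 passed the test of the difference and 707 did not, so for those 707 an effect of their own in liver is not shown to differ from the effect in testis. Control and stress libraries did not overlap in liver for 107 of the 110 genes, where 22.8% of all tested genes had no overlap, and in testis for 46, where 22.5% had none. The genes were chosen on the difference in these same libraries, which favours groups without overlap, so nothing is read from these shares either. The signs of the effect were opposite in 88 of the 110 and in 50.7% of all tested genes, and since choosing genes on the difference favours opposite signs, nothing is read from this share.

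**Figure D1:**
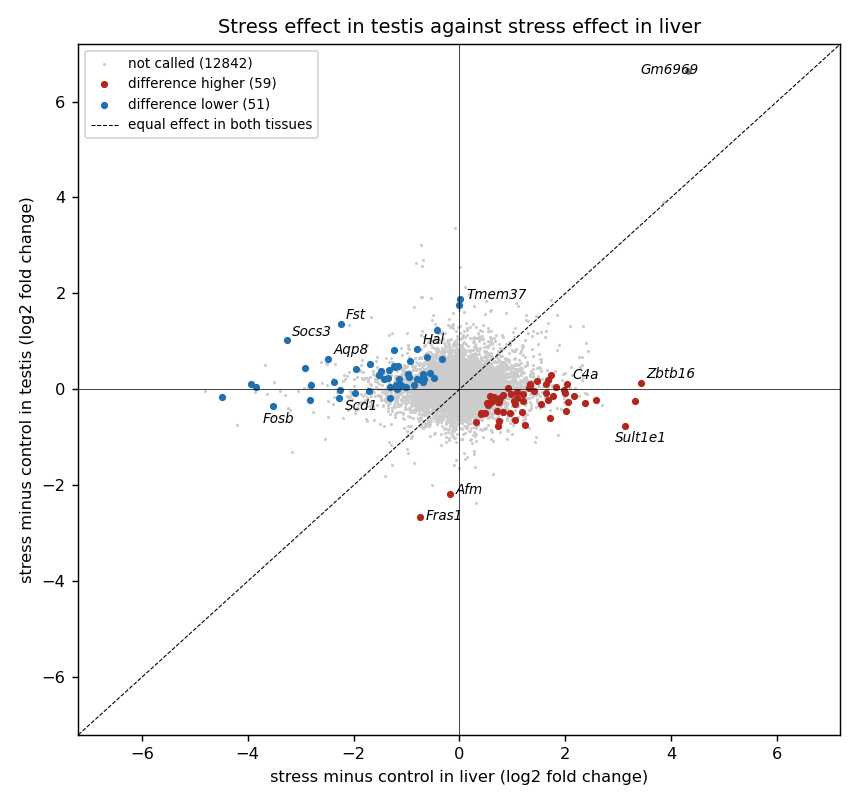
Stress effect in testis (vertical) against stress effect in liver (horizontal), both as log2 fold change of stress over control, for 12952 genes. Red points are the 59 genes with a higher and blue points the 51 genes with a lower stress effect in liver than in testis, the dashed line marks equal effects, and most coloured points lie along the horizontal axis, away from the 4 genes that passed in testis.

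The number of calls rests on few libraries. With 1 library left out at a time, 21 of the 110 passed in all 12 fits and 89 missed in at least 1. The genes kept were 92, 62 and 92 without control liver replicates 1, 2 and 3, and 67, 82 and 25 without the stress liver replicates in that order. They were 30, 25 and 25 without the control testis replicates and 49, 56 and 54 without the stress testis replicates. The sample codes recur in liver and testis, but the labels do not say that a code marks an animal. With the code as a block 17 genes were higher and 22 lower, 31 of them among the 110. DESeq2 called 310 higher and 341 lower and took in 109 of the 110. None of the 110 differences changed sign in the count models run, and 1 did on the log2(TPM + 1) scale, that of 5330417C22Rik, from -1.90 to 0.01.

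Sorted by function, with the classes made after the calls were known, 84 of the 110 fell into 10 classes and 26 stayed unsorted. The directions were known at the sorting, and tested genes without a call were not sorted. The classes serve as an order of description, and nothing is read from a class that points one way. Classes that pointed one way were the glucocorticoid-inducible and clock genes (4 higher, 0 lower), chaperones (2 and 0), cytokine feedback, immediate early and growth arrest genes (0 and 8), and lipid and sterol synthesis (0 and 4). Mixed classes were immune and complement genes (8 higher, 2 lower), chromatin, transcription and RNA processing (9 and 2), cilium, flagellum and germ cell genes (10 and 4), cell cycle and DNA repair (1 and 5), matrix, adhesion and cytoskeleton (4 and 6) and other metabolic enzymes and transporters (8 and 7).

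Genes that glucocorticoids induce differed in 4 members, each of which rose in liver and did not pass in testis. Zbtb16 (ENSMUSG00000066687) encodes a zinc finger repressor and is induced by glucocorticoids. Levels here and below are given for replicates 1, 2 and 3 in that order, control first and stress second. Its level was 2.16, 3.66 and 3.53 CPM in control liver replicates 1, 2 and 3 and 19.4, 49.2 and 32.7 CPM in stress liver, and in testis 2.9, 2.41 and 2.87 CPM in control and 2.72, 2.65 and 3.64 CPM in stress. Every stress liver library lay above every other library, and the testis groups overlapped. The log2 fold change was 3.44 ± 0.31 (SE) in liver and 0.14 ± 0.32 in testis, a difference of 3.30 ± 0.44 (edgeR adjusted p = 0.00626).

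Fkbp5 (ENSMUSG00000024222), a co-chaperone that dampens the glucocorticoid receptor, stood at 13.3, 12.5 and 17.7 CPM in control liver and 34.8, 58.5 and 42.6 CPM in stress liver, against 41.3, 36.2 and 37.1 CPM in control testis and 35.3, 50.6 and 37.2 CPM in stress testis. Stress liver libraries lay above every control liver, at levels like those of the testis, whose groups overlapped. The difference was 1.54 ± 0.28 (edgeR adjusted p = 0.0279). The gene of the anti-inflammatory protein GILZ, Tsc22d3 (ENSMUSG00000031431), had 67.5, 38.9 and 49.6 CPM in control and 163, 151 and 203 CPM in stress liver, with no overlap. In testis its values were 8.43, 11.4 and 11.3 CPM and 12, 14.8 and 11.3 CPM, which overlapped, and the difference was 1.44 ± 0.28 (edgeR adjusted p = 0.0367). Per2, a clock repressor that also has glucocorticoid response elements, rose in liver from 66.7, 56.1 and 52.7 CPM to 112, 147 and 144 CPM and had 10.3, 9.64 and 11.6 CPM and 10.3, 9.54 and 9.77 CPM in testis. The difference was 1.29 ± 0.19 (edgeR adjusted p = 0.00875). Zbtb16 and Per2 passed in all 12 fits with a library left out, while Fkbp5 passed in 5 and Tsc22d3 in 6 of them, with largest edgeR adjusted p values of 0.0969 and 0.109. With the sample code as a block Tsc22d3 missed (edgeR adjusted p = 0.0988).

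**Figure D2:**
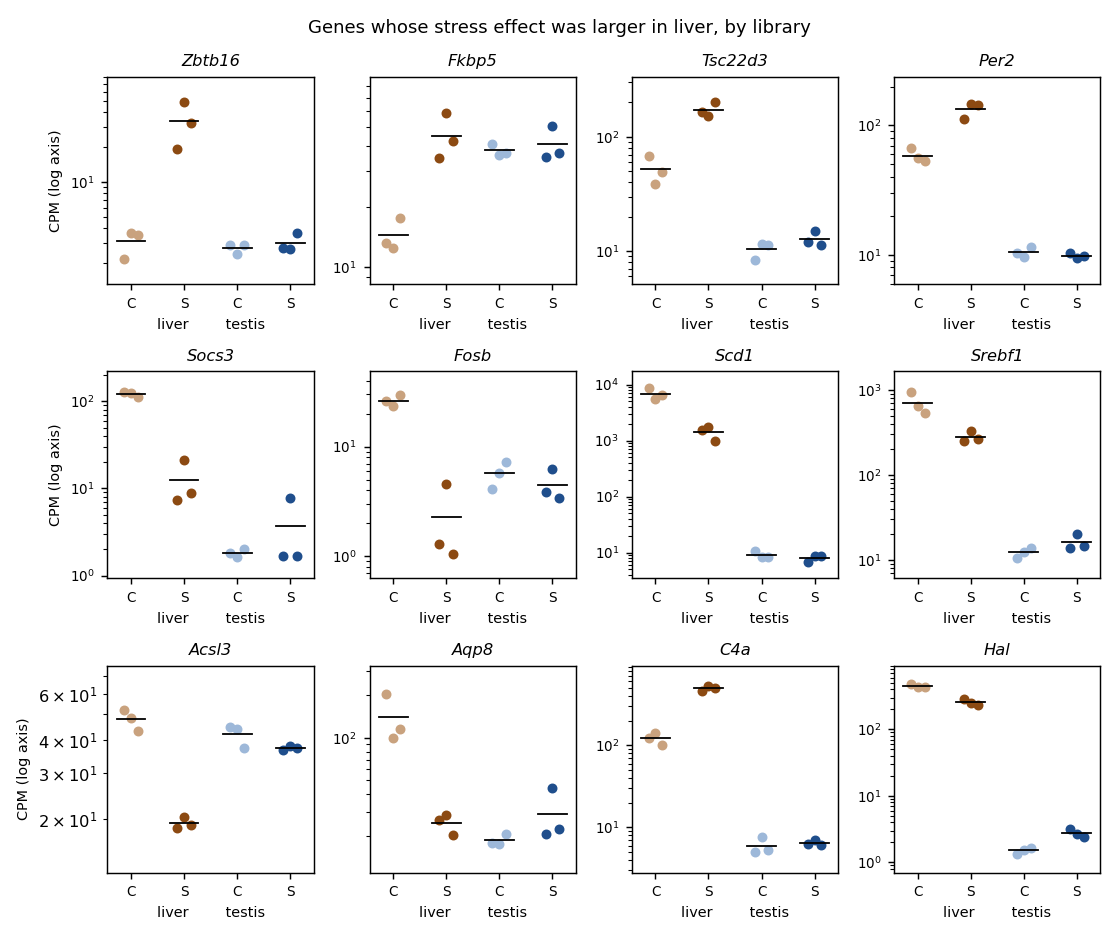
CPM on a log axis for 12 genes whose stress effect was larger in liver, with control (C) and stress (S) libraries of liver (brown) and testis (blue), 3 points per group and a black bar at the mean. For Zbtb16 the 3 stress liver libraries lie between 19.4 and 49.2 CPM and the other 9 libraries between 2.16 and 3.66 CPM.

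No other listed glucocorticoid-inducible gene was called for the difference. In liver 7 listed genes rose and 4 fell, where 3.08% and 3.15% of all tested genes did. Per1, a clock gene that glucocorticoids switch on, had log2 fold changes of 0.23 in liver and 0.24 in testis, and Sgk1, a kinase gene of the same kind, had -0.75 and 0.26 (edgeR adjusted p of the difference = 0.991 and 0.138). Sgk1 had 16.6, 18.0 and 21.2 CPM in control liver and 11.1, 13.1 and 8.99 CPM in stress liver, and 4.25, 5.29 and 5.80 CPM and 5.13, 8.49 and 4.78 CPM in testis, with no overlap in liver and overlap in testis, and the liver effect did not pass (edgeR adjusted p = 0.0649). The metallothionein genes Mt1 and Mt2, which bind zinc and copper, fell in liver, with log2 fold changes of -2.12 and -2.83, and had testis values of 0.28 and 0.16, and their differences did not pass (edgeR adjusted p = 0.13 and 0.0816). Of the 27 tested members of the glucocorticoid-induced list, 4 differed upward and 0 downward, where 0.456% and 0.394% of all tested genes did. At an unadjusted p under 0.05 in edgeR there were 5 and 8, beside 7.13% and 10.4% of all tested genes. The list's median was -0.22 in liver, 0.19 in testis and -0.12 as a difference, beside -0.03, 0.01 and -0.04 for all tested genes, and the median difference lay between -0.41 (without control liver replicate 1) and 0.02 (without stress testis replicate 2) with 1 library left out. Without stress liver replicate 2 it was -0.37, so neither its size nor its sign held across libraries. Nr3c1, the glucocorticoid receptor gene itself, stood at 49.9, 85.2 and 53.4 CPM in control and 55.1, 61.5 and 58.0 CPM in stress liver, and at 11.2, 12.7 and 12.3 CPM and 10.2, 7.79 and 9.92 CPM in testis. Its difference was 0.27 ± 0.26 (edgeR adjusted p = 0.62), and it passed in neither tissue. Of 18 clock genes tested, Per2 was the single one called, where 0.849% of all tested genes were. In liver 2 of them rose, where 3.08% of all tested genes did, and 0 passed in testis.

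A promoter of this list is shown because it holds the full palindrome of the glucocorticoid response element at a gene without a call. That palindrome, the same read on either strand around a short spacer, was searched on both strands of RefSeq promoter windows (build GRCm38.p6, 250 bases before to 50 after the start of the gene). It lay in 1 of 23 listed genes with a window, Sgk1, in 0.01% of all 27025 genes with a window and in 0.02% of the tested genes with one. Capitals mark the match in the stretch at chr10:21993661-21993755 (plus strand).
Sgk1: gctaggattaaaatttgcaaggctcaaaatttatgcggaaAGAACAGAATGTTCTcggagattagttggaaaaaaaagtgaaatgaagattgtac
Of the 4 called genes, Fkbp5 and Tsc22d3 have windows in the table, and these letters are not in them.

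Cytokine feedback, immediate early and growth arrest genes, many of which respond quickly to cytokines and growth factors, gave 8 that differed, all of which fell in liver and did not pass in testis. Socs3 (ENSMUSG00000053113), whose protein shuts off cytokine receptors of the IL-6 family, stood at 127, 124 and 113 CPM in control liver and at 7.46, 21.4 and 8.89 CPM in stress liver. In testis the 3 control libraries had 1.83, 1.62 and 2.04 CPM and the stress libraries 1.70, 7.79 and 1.68 CPM, with replicate 2 alone high. The liver groups did not overlap and the testis groups did, and the difference was -4.28 ± 0.73 (edgeR adjusted p = 0.0184), or -3.12 without stress testis replicate 2 (edgeR adjusted p = 0.0231). Fosb (ENSMUSG00000003545), a subunit of the AP-1 transcription factor, fell in liver from 26.1, 23.5 and 29.5 CPM to 1.28, 4.52 and 1.03 CPM, with 4.10, 5.72 and 7.24 CPM and 3.84, 6.29 and 3.37 CPM in testis and a difference of -3.18 ± 0.60 (edgeR adjusted p = 0.0352). In both genes stress liver replicate 2 was the highest of its group and still below every control.

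Socs1, a second inhibitor of cytokine receptors, ranged from 1.12 to 6.23 CPM in control and from 0.319 to 0.517 CPM in stress liver, with testis groups that overlapped and a difference of -3.35 ± 0.72 (edgeR adjusted p = 0.0477). Fst encodes follistatin, which binds activins. It fell in liver from 15.2, 12.7 and 11.9 CPM to 3.67, 2.55 and 2.17 CPM, while testis had 0.476, 0.756 and 0.542 CPM in control and 0.475, 3.45 and 0.661 CPM in stress. Stress testis replicate 2 was again the single high library, and the difference of -3.61 ± 0.77 became -2.17 without it (edgeR adjusted p = 0.0468 and 0.0425). Btg1, a growth arrest gene, and Atf4, the transcription factor of the integrated stress response, fell in liver by 1.14 and 1.10 on the log2 scale and had testis values of 0.21 and 0.08 (edgeR adjusted p of the difference = 0.0357 and 0.0454). Of these 6 genes Socs3 passed in 8 of the 12 fits with a library left out, Fosb and Btg1 in 5, Fst in 3, Socs1 in 2 and Atf4 in 1, with largest edgeR adjusted p values from 0.0781 for Socs3 to 0.137 for Fst and Socs1. With the sample code as a block Btg1, Fst and Socs1 missed (edgeR adjusted p = 0.0815, 0.117 and 0.0811). The part of the cell makeup of stress testis replicate 2 in the values of Socs3 and Fst was not tested.

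Immediate early genes as a list showed the same direction. The liver value was negative in 30 of 30 tested members and the difference in 29, where 54.3% and 53.4% of all tested genes were negative. In liver 10 fell, where 3.15% of all tested genes did, and 0 passed in testis. Beside Socs3 and Fosb, Nr4a3, an orphan nuclear receptor gene, had a difference of -4.78 ± 1.05 and Jund, another AP-1 subunit, one of -1.90 ± 0.42, both short of the threshold (edgeR adjusted p = 0.0531 and 0.0539). The list had 17 members with a negative difference and 0 with a positive one at an unadjusted p under 0.05, where 10.4% and 7.13% of all tested genes had. Its median was -1.57 in liver, -0.04 in testis and -1.62 as a difference. Library by library, relative to the control mean of the tissue, the list median was -2.71, -0.65 and -2.42 in stress liver replicates 1, 2 and 3 and -0.24, 0.11 and 0.19 in the liver controls. Replicate 2 thus stood closer to the controls than the other stress libraries did, and without it the median difference was -3.07 and 15 members passed in place of 2. Without stress liver replicate 3, 0 members passed, and without stress testis replicate 2 the median difference was -1.02 and 1 member passed. List medians of the testis libraries lay between -0.28 and 0.32. Fos and Egr1, named after their values were seen, show the spread among the stress libraries. Fos, another AP-1 subunit, had 638, 856 and 506 CPM in control liver and 2.87, 819.9 and 4.33 CPM in stress liver, and 3.85, 7.27 and 24.4 CPM and 0.543, 10.7 and 0.721 CPM in testis. Egr1, a zinc finger transcription factor, had 701, 965 and 982 CPM in control and 6.06, 1042 and 2.78 CPM in stress liver, and 21.9, 32.6 and 54.9 CPM and 6.08, 41.0 and 4.45 CPM in testis. In both genes and both organs stress replicate 2 lay among or above the controls and the other stress libraries below every control, and neither difference passed (edgeR adjusted p = 0.958 and 0.963).

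Many immediate early genes carry a cyclic AMP response element in the promoter, so the letters TGACGTCA, their own reverse complement, were searched in the RefSeq windows. They were found in 3 of 26 members with a window and in 2 of 38 genes called lower (5.26%). Among genes with a window, they lay in 4.18% of those that fell in liver, in 3.64% of tested genes and in 2.03% of all genes. Btg2, Dusp1 and Maff are the members, and Slc25a25, a mitochondrial ATP carrier gene, is a gene called lower. They were chosen after these matches and their values were seen. Capitals mark the match in the following stretches, at chr2:32424169-32424256, chr1:134079274-134079361 and chr17:26508568-26508655 on the minus strand and chr15:79347451-79347519 on the plus strand of GRCm38.p6.
Slc25a25: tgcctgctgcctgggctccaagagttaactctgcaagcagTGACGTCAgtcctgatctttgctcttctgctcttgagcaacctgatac
Btg2: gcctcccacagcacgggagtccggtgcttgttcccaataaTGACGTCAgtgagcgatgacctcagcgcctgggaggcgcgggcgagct
Dusp1: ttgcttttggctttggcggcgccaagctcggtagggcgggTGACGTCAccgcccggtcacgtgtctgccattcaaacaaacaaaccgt
Maff: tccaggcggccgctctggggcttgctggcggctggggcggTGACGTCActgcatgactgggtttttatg
The match is the same in all 4, and the flanks differ. Slc25a25 fell in liver from 487, 487 and 418 CPM to 232, 278 and 262 CPM and had 43.5, 50.0 and 55.4 CPM and 57.3, 53.9 and 48.2 CPM in testis, a difference of -0.95 ± 0.19 (edgeR adjusted p = 0.0372, or 0.103 with the code as a block). Btg2, Dusp1 and Maff had liver log2 fold changes of -3.17, -1.54 and -1.32 and testis values of -1.30, 0.02 and 0.36, none of them past the threshold (edgeR adjusted p of the difference = 0.474, 0.348 and 0.229).

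Lipid and sterol synthesis genes gave 4 calls, each of which fell in liver and did not pass in testis. Acsl3 (ENSMUSG00000032883) activates long-chain fatty acids for lipid synthesis, with like levels in both control organs. Its values were 52.0, 48.7 and 43.5 CPM in control liver and 18.5, 20.4 and 19.1 CPM in stress liver, against 44.9, 43.9 and 37.2 CPM and 36.6, 38.0 and 37.3 CPM in testis. The stress liver libraries were the lowest of the 12, the testis groups overlapped, and the difference was -1.14 ± 0.16 (edgeR adjusted p = 0.00626). Scd1 (ENSMUSG00000037071), the stearoyl-CoA desaturase of liver, fell from 8593, 5501 and 6632 CPM to 1556, 1731 and 988 CPM and stood at 10.7, 8.42 and 8.48 CPM in control and 6.93, 8.55 and 8.72 CPM in stress testis. Its difference was -2.09 ± 0.31 (edgeR adjusted p = 0.00943). Srebf1 (ENSMUSG00000020538), the transcription factor gene that drives lipogenesis, fell from 947, 645 and 539 CPM to 253, 332 and 264 CPM in liver, while all 3 stress testis libraries, at 14, 20.5 and 14.4 CPM, lay above the testis controls at 10.6, 12.4 and 13.9 CPM. That testis effect of 0.40 ± 0.22 did not pass, and the difference of -1.73 ± 0.30 did (edgeR adjusted p = 0.58 and 0.0234).

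Mvd, a decarboxylase of the mevalonate pathway, was the single sterol gene called, with liver values of 71.1, 43.0 and 38.4 CPM in control and 20.3, 21.6 and 18.1 CPM in stress, testis values of 3.12, 4.14 and 4.53 and 3.84, 4.82 and 5.32 CPM, and a difference of -1.59 ± 0.32 (edgeR adjusted p = 0.0382). Acsl3 and Scd1 passed with any 1 library left out, Srebf1 in 8 and Mvd in 5 of the 12 such fits. Srebf1 and Mvd missed with the code as a block (edgeR adjusted p = 0.053 and 0.11). In the list of cholesterol synthesis and sterol control, 25 of 25 differences were negative, where 53.4% of all tested genes had a negative difference. There 1 passed and 17 had an unadjusted p under 0.05, which 10.4% of all tested genes had with a negative difference. The median was -0.81 in liver, -0.02 in testis and -0.77 as a difference. Hmgcs1, Pmvk and Msmo1, enzymes of that pathway, had differences of -1.23, -1.57 and -1.21, short of the threshold (edgeR adjusted p = 0.072, 0.0764 and 0.101). In the fatty acid synthesis list, 3 of 23 passed downward and 12 were lower at an unadjusted p under 0.05, beside 0.394% and 10.4% of all tested genes. The list had a median of -0.63 in liver, -0.04 in testis and -0.50 as a difference. Pltp, which transfers phospholipids between lipoproteins, had -2.44 ± 0.53 (edgeR adjusted p = 0.0516). Fatty acid oxidation showed no called member among 29. There edgeR's unadjusted p under 0.05 was met by 1 higher and 8 lower, beside 7.13% and 10.4% of all tested genes. The median difference of -0.13 lay between -0.21 (without stress liver replicate 1) and -0.08 (without control testis replicate 1 or stress testis replicate 2) with 1 library left out.

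Chaperones gave 2 calls, both of which rose in liver. Stip1, a co-chaperone that links Hsp70 and Hsp90, rose in liver from 83.9, 71.5 and 96.3 CPM to 130.2, 158 and 159 CPM and held 163, 132 and 138 CPM and 129, 131 and 138 CPM in testis. Its difference was 0.95 ± 0.19 (edgeR adjusted p = 0.0382). Hspa4l, an Hsp110 family member abundant in male germ cells, rose in liver from 14.9, 18.3 and 20.8 CPM to 32.5, 41.5 and 51.0 CPM, far below its testis levels of 1367, 1192 and 1191 CPM in control and 1163, 807 and 1206 CPM in stress. The difference was 1.45 ± 0.27 (edgeR adjusted p = 0.0352). With a library left out Hspa4l passed in 6 and Stip1 in 3 of 12 fits, with largest edgeR adjusted p values of 0.0969 and 0.111. Both missed with the code as a block (edgeR adjusted p = 0.0715 and 0.0745). Among 25 heat shock proteins and co-chaperones 8 rose in liver, where 3.08% of all tested genes did, and 0 passed in testis. In the difference 2 were called higher, where 0.456% of all tested genes were. At an unadjusted p under 0.05 in edgeR 10 were higher and 0 lower in the difference, where 7.13% and 10.4% of all tested genes were. Cacybp and Chordc1, both Hsp90 partners, had differences of 0.91 and 1.01 short of the threshold (edgeR adjusted p = 0.0662 and 0.109). The list median was 0.57 in liver, -0.01 in testis and 0.44 as a difference. In the endoplasmic reticulum stress list, 19 of 25 tested members had a positive difference, where 53.4% of all tested genes had a negative one. The list's median difference was 0.29, and the unadjusted p was under 0.05 in edgeR for 6 higher and 1 lower, beside 7.13% and 10.4% of all tested genes. The 1 lower was Atf4, the single member called.

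The heat shock element, alternating GAA and TTC units with a short spacer, was searched on both strands. It lay in 4 of 20 list members with a window (20%), in 0.66% of all genes with a window and in 0.59% of the tested genes with one. Hspe1, the mitochondrial chaperonin 10 gene, which shares its promoter with Hspd1, holds 2 overlapping matches and was chosen for them. The stretch at chr1:55088019-55088116 (plus strand, GRCm38.p6) has the overlapping matches in capitals.
Hspe1: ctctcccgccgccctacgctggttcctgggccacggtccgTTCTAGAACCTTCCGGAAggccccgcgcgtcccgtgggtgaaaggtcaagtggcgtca
Hspe1 and Hspd1 had liver log2 fold changes of 0.34 and 0.29 and testis values of 0.10 and -0.16, and neither difference passed (edgeR adjusted p = 0.643 and 0.301).

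Metabolic enzymes and transporters outside lipid synthesis split by direction. Aqp8 (ENSMUSG00000030762), a channel for water and ammonia, fell in liver from 206, 99.7 and 116 CPM to 26.3, 28.4 and 20.5 CPM, and had 18.1, 17.6 and 20.8 CPM in control and 20.8, 43.9 and 22.6 CPM in stress testis, with replicate 2 highest. Its difference was -3.11 ± 0.42, and -2.66 without stress testis replicate 2 (edgeR adjusted p = 0.00626 and 0.00656). Hal (ENSMUSG00000020017), the histidine-degrading enzyme of liver and skin, had values that parted in both organs. In liver it went from 484, 434 and 431 CPM to 287, 251 and 236 CPM, and in testis from 1.32, 1.55 and 1.66 CPM to 3.16, 2.65 and 2.37 CPM, a low level. Control and stress did not overlap in either tissue, the liver effect was -0.80 ± 0.13 and passed, the testis effect of 0.85 ± 0.16 did not (edgeR adjusted p = 0.00516 and 0.232), and the difference was -1.65 ± 0.21 (edgeR adjusted p = 0.00626).

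Alas1, the rate-limiting enzyme of heme synthesis, rose in liver from 285, 569.9 and 430.3 CPM to 747, 1887 and 1482 CPM and had 121, 122 and 112 and 98.4, 94.4 and 112 CPM in testis, a difference of 1.90 ± 0.40 (edgeR adjusted p = 0.0468). Sult1e1, which inactivates estrogens by sulfation, rose in liver from a range of 0 to 0.423 CPM to one of 1.52 to 3.80 CPM, and testis had 12.4, 7.81 and 7.59 CPM in control and 7.13, 3.38 and 5.95 CPM in stress. With 3.89 ± 0.78 it had the largest upward difference of the named genes, from levels near the detection limit in control liver (edgeR adjusted p = 0.0382). Scara5, a ferritin receptor, rose in liver from 2.52, 3.11 and 2.46 CPM to 5.87, 14.4 and 11.5 CPM against 46.6, 43.5 and 48.4 and 42.5, 47.4 and 47.0 CPM in testis, a difference of 1.99 ± 0.34 (edgeR adjusted p = 0.0183). Gal3st1, a sulfotransferase that makes sulfatide, fell in liver by 2.37 with a testis value of 0.15 on the log2 scale (edgeR adjusted p of the difference = 0.0382). Aqp8 and Hal passed with any 1 library left out, Scara5 in 8, Sult1e1 and Gal3st1 in 3 and Alas1 in 2 of the 12 fits. Sult1e1, Gal3st1 and Alas1 missed with the code as a block (edgeR adjusted p = 0.0669, 0.0811 and 0.0775).

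A small group of genes was led by the testis. Afm (ENSMUSG00000029369) encodes afamin, a vitamin E-binding plasma protein made by liver. Its liver values were 258, 228 and 285 CPM in control and 251, 242 and 187 CPM in stress, which overlapped. In testis it stood at 14.8, 11.5 and 18.7 CPM in control and 3.06, 2.94 and 3.91 CPM in stress, with every stress library at less than any control. The testis effect was -2.19 ± 0.20 and the difference 2.01 ± 0.26 (edgeR adjusted p = 0.000237 and 0.00626). Alb, a hepatocyte transcript, was at or near 0 in the same testis libraries.

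Fras1 (ENSMUSG00000034687), an extracellular matrix protein gene of basement membranes, was lower in both tissues. It had 7.93, 7.22 and 9.15 CPM in control and 4.31, 5.06 and 5.08 CPM in stress liver, and 5.02, 7.38 and 6.88 CPM in control and 1.05, 1.02 and 0.962 CPM in stress testis, without overlap in either. The effect was -0.75 ± 0.19 in liver and -2.66 ± 0.22 in testis, and the difference 1.91 ± 0.29 (edgeR adjusted p = 0.0362, 0.000126 and 0.00953). Tmem37 (ENSMUSG00000050777), a subunit-like protein of calcium channels, was level in liver at 90.5, 72.2 and 72.7 CPM and 84.1, 82.0 and 71.8 CPM and rose in testis from 1.65, 1.51 and 1.82 CPM to 6.01, 7.76 and 4.57 CPM. Its testis effect was 1.87 ± 0.20 and its difference -1.86 ± 0.25 (edgeR adjusted p = 0.000742 and 0.00626).

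With testis fitted by itself, Fras1 and Afm passed (edgeR adjusted p = 0.0102 and 0.0163) and Tmem37 did not (edgeR adjusted p = 0.0871). The difference passed with any 1 library left out for Afm, Fras1 and Tmem37, and with the code as a block Fras1 missed (edgeR adjusted p = 0.0545). Without stress testis replicate 2 the differences were 1.95, 1.94 and -1.62 in the order Afm, Fras1 and Tmem37. Also called in testis, the processed pseudogene Gm6969, named after its values were seen, rose in both tissues, with 4.32 ± 0.55 in liver and 6.63 ± 0.69 in testis, and its difference did not pass (edgeR adjusted p = 0.23).

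**Figure D3:**
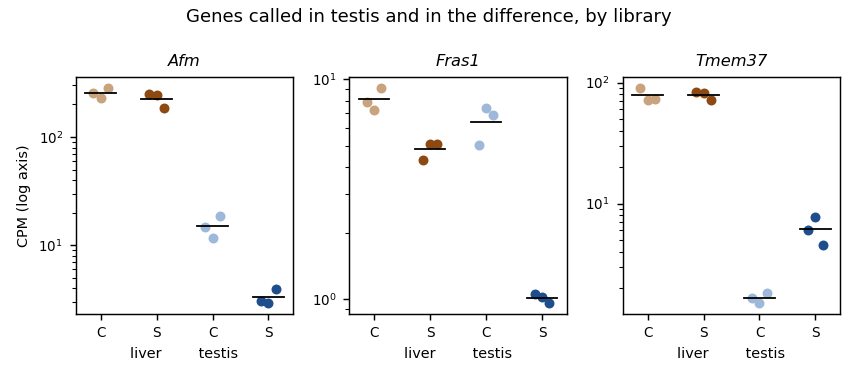
CPM on a log axis for 3 genes that passed in testis and in the difference, with control (C) and stress (S) libraries of liver (brown) and testis (blue), 3 points per group and a black bar at the mean. Afm and Fras1 are lower and Tmem37 higher in all 3 stress testis libraries than in all 3 controls, and in liver Fras1 alone separates.

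Among the 7 genes that passed as a difference and in neither tissue, 5 were higher and 2 lower. H2-Q4, a class I histocompatibility gene, had 48.6, 30.2 and 32.9 CPM in control and 29.1, 27.4 and 26.9 CPM in stress liver, and 0.660, 1.51 and 1.15 CPM and 2.55, 2.87 and 2.46 CPM in testis, where every stress library lay above every control. The difference was -1.66 ± 0.33 (edgeR adjusted p = 0.0382, or 0.115 with the code as a block). Genes of the H2-Q cluster are close copies whose reads can be shared, so this value is uncertain. Of 16 class I genes tested, 1 differed and 15 had negative differences, as 53.4% of all tested genes did. Their median was -0.11 in liver, 0.39 in testis and -0.47 as a difference. The testis libraries had list medians of 0.16, 0.57 and 0.21 in stress replicates 1, 2 and 3 against 0.003 to 0.07 in controls, and without replicate 2 the median difference was -0.26. Others of the 7, named after their values were seen, were Hc, the complement component C5 gene, Dbt, a subunit of the enzyme that degrades branched-chain keto acids, the chromatin genes Kat6a and Spen, and the transcript 2610005L07Rik, all of which missed with the code as a block (edgeR adjusted p from 0.0969 to 0.103).

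Immune and complement genes gave 8 higher and 2 lower calls, and 7 rose in liver. C4a (ENSMUSG00000015451), the complement C4 copy known in mouse as sex-limited protein, rose in liver from 123, 141 and 99.6 CPM to 461, 529 and 493 CPM and held 4.98, 7.56 and 5.32 CPM and 6.28, 6.96 and 6.07 CPM in testis. Control and stress did not overlap in liver and overlapped in testis, with a difference of 1.92 ± 0.24 (edgeR adjusted p = 0.00626). It is a close copy of C4b, and reads could be split between them. Fyb, an adaptor of T cells and myeloid cells, rose in liver from 1.12, 0.786 and 1.26 CPM to 3.51, 3.83 and 3.98 CPM with 15.3, 15.7 and 17.2 and 16.7, 17.0 and 16.2 CPM in testis, a difference of 1.78 ± 0.25 (edgeR adjusted p = 0.00626). Entpd1, the ectoenzyme CD39 that degrades extracellular ATP, rose from 1.36, 0.937 and 0.921 CPM to 4.05, 2.96 and 3.04 CPM and held 36.3, 37.3 and 36.7 and 36.4, 32.3 and 36.2 CPM in testis (difference 1.71 ± 0.24, edgeR adjusted p = 0.00626). Coro2a, an actin-binding protein gene, differed by 1.90 ± 0.40 (edgeR adjusted p = 0.0454). Its liver levels were low, at 0.829, 0.514 and 0.276 CPM in control and 2.04, 1.08 and 2.46 CPM in stress. Testis had 234, 199.8 and 206 CPM in control and 207, 178 and 199 CPM in stress. C4a, Fyb and Entpd1 passed with any 1 library left out, and Coro2a in 2 of the 12 fits, while with the code as a block Coro2a missed (edgeR adjusted p = 0.0745).

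Macrophage markers moved with these genes in liver. The 18 listed markers summed to between 142 and 168.2 CPM in control liver and between 272.2 and 344.4 CPM in stress liver, and in testis to between 103.2 and 108.6 CPM in control and 104.6, 196.5 and 114.7 CPM in stress. In liver 9 of the 15 tested markers rose, where 3.08% of all tested genes did, and in testis 0 passed. As a difference 0 of 15 passed in edgeR. At an unadjusted p under 0.05 in edgeR 5 were higher and 0 lower, beside 7.13% and 10.4% of all tested genes. Their median was 1.08 in liver, 0.52 in testis and 0.34 as a difference, which lay between 0.14 (without stress testis replicate 1) and 0.85 (without stress testis replicate 2) with 1 library left out. None of the 15 tested markers was at 0 in any of the 12 libraries. The 20 lymphocyte markers summed to 26.87, 13.51 and 20.11 CPM in control liver replicates 1, 2 and 3 and to 43.73, 20.78 and 32.85 CPM in stress liver, which overlapped, and in testis to between 15.55 and 19.7 CPM in control and between 18.86 and 22.84 CPM in stress. Of the 8 tested, 2 rose and 1 fell in liver, where 3.08% and 3.15% of all tested genes did. The difference was positive in 7, where 53.4% of all tested genes had a negative one, and 0 passed as a difference in edgeR. At an unadjusted p under 0.05 in edgeR 3 were higher and 1 lower, beside 7.13% and 10.4% of all tested genes. Their median was 0.76 in liver, 0.34 in testis and 0.58 as a difference, which was 0.75 without stress testis replicate 2 and lay between 0.37 (without control liver replicate 2) and 1.08 (without control liver replicate 1). The part of the macrophage and lymphocyte markers in the immune genes was not tested. Class II histocompatibility genes, which present antigen, rose in liver in 5 of 8, where 3.08% of all tested genes rose. They passed as a difference in 0 of 8, and 1 was higher at an unadjusted p under 0.05 in edgeR, beside 7.13% of all tested genes. Their medians were 1.25 in liver and 0.66 in testis. Their median difference of 0.39 lay between 0.16 (without stress testis replicate 1) and 0.84 (without stress testis replicate 2). Endothelial markers had a median of -0.57 in liver, 0.21 in testis and -0.85 as a difference. Of 17 tested, 0 were called and 8 were lower at an unadjusted p under 0.05 in edgeR, where 10.4% of all tested genes were. The median difference was -0.52 without stress testis replicate 2 and -0.47 without control liver replicate 1.

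Cilium, flagellum and germ cell genes gave 14 calls, 13 of them at a higher mean CPM in testis, where none passed. Adgb (ENSMUSG00000050994), which encodes androglobin, a globin of testis and ciliated cells, was at 0.888, 1.12 and 0.614 CPM in control and 2.55, 2.10 and 3.07 CPM in stress liver. In testis it stood at 164, 161 and 179.8 CPM in control and 149, 122 and 139 CPM in stress. It rose in liver, lay lower in every stress testis library than in any control without passing, and differed by 1.85 ± 0.26 (edgeR adjusted p = 0.00626). Ctcflos, an RNA antisense to Ctcfl, rose in liver from 5.56, 6.89 and 9.15 CPM to 17.8, 15.3 and 17.7 CPM and had 1.83, 2.48 and 2.68 CPM and 1.73, 1.31 and 1.17 CPM in testis, a difference of 1.97 ± 0.32 (edgeR adjusted p = 0.015). The library kit keeps strand, but the sources used here do not say whether the counting used it, so it cannot be told apart from Ctcfl. Others were chosen after their values were seen. Dync2h1, the motor of transport inside cilia, rose from 3.43, 3.32 and 3.38 CPM to 5.39, 5.63 and 5.53 CPM in liver and had 190.0, 235 and 271 CPM and 186, 140.3 and 179.8 CPM in testis (difference 1.17 ± 0.21, edgeR adjusted p = 0.0257, or 0.0669 with the code as a block).

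Sun3 and Lrrc18, also chosen after their values were seen, fell in liver from a trace. Sun3, a nuclear envelope protein gene of spermatids, had 0.385, 0.574 and 0.522 CPM in control liver and 0.0319, 0 and 0.0647 CPM in stress liver against 90.3, 86.4 and 82.1 CPM and 95.5, 75.0 and 97.8 CPM in testis. Lrrc18 had 0.710, 0.363 and 0.553 CPM and 0, 0.0599 and 0 CPM in liver against 844, 673 and 676 CPM and 695, 559.8 and 700.4 CPM in testis. Both were below 1 CPM in every liver library and lower in each stress library, and their fitted differences of -3.89 and -4.33 depend on how values near 0 are handled (edgeR adjusted p = 0.00626 and 0.00969). Both passed the low-count filter in liver through the control libraries alone, so their fall there is tied to how they entered the test. Germ cell marker sums in liver went in different directions. Meiotic prophase markers summed to between 71.76 and 76.83 CPM in control and between 60.66 and 63.92 CPM in stress liver, lower without overlap. Spermatogonial markers summed to between 95.78 and 135.8 CPM and between 162.7 and 213.6 CPM, higher without overlap. That list holds Zbtb16, whose mean was 3.12 CPM in control and 33.7 CPM in stress liver, so the list's sum is not a measure of germ cells alone. Zbtb16 gave only a part of the rise of that sum, and the rest came from other members of the list. The median liver log2 fold change of the list's 6 tested members was 0.08. Round spermatid sums, from 22.62 to 54.63 CPM in control and from 34.84 to 39.55 CPM in stress, overlapped, as did those of elongating spermatids. The part of these markers in the values of Sun3, Lrrc18 and the other germ cell genes was not tested. In all, 16 of the 110 genes had a mean in the lower tissue under 1% of that in the other, 13 of them higher in testis, and without such genes 93 were called, 92 of them shared.

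Chromatin, transcription and RNA processing genes gave 9 higher and 2 lower calls. The testis value was negative in 9 of the 11, beside 48% of all tested genes, and none passed there, while 7 rose and 2 fell in liver. These 9 are the genes called higher, and choosing genes on the difference favours such a testis sign, so nothing is read from it. Pnn and Pnisr, both tied to splicing and named after their values were seen, differed by 0.84 ± 0.16 and 0.87 ± 0.16 (edgeR adjusted p = 0.0352 and 0.0304). E2f7, a repressor of the cell cycle, rose in liver from 0.178, 0.605 and 0.368 CPM to 1.08, 1.62 and 1.97 CPM and lay lower in each stress testis library, at 5.23, 4.44 and 6.37 CPM against 6.71, 6.98 and 8.38 CPM, a difference of 2.48 ± 0.48 (edgeR adjusted p = 0.0359). Mrnip, a partner of the MRN complex that senses DNA breaks, fell in liver and lay higher in each stress testis library without passing there, with 2.49, 3.11 and 4.42 CPM and 1.21, 1.14 and 1.23 CPM in liver and 8.98, 9.03 and 8.54 CPM and 11.6, 12.2 and 10.6 CPM in testis. Its groups did not overlap in either tissue, and the difference was -1.86 ± 0.30 (edgeR adjusted p = 0.015). Pnn, Pnisr, E2f7 and Mrnip missed with the code as a block (edgeR adjusted p = 0.0811, 0.0715, 0.0745 and 0.0669). Mrnip is 1 of 5 lower genes among the 6 of cell cycle and DNA repair.

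In the matrix, adhesion and cytoskeleton class, Tchh, a structural protein of hair follicles, fell in liver from 11.6, 14.8 and 15.3 CPM to 1.24, 2.67 and 1.94 CPM and had 5.06, 6.15 and 5.83 CPM and 5.74, 3.58 and 5.26 CPM in testis. Its difference was -2.60 ± 0.37 (edgeR adjusted p = 0.00626). Tm4sf1, a membrane protein of endothelial cells, fell by 1.23 in liver and had 0.81 in testis (edgeR adjusted p of the difference = 0.0382). Epb41l3, a protein that ties the membrane to actin, rose in liver from 0.178 to 0.307 CPM to 0.779 to 1.36 CPM against over 100 CPM in each testis library (difference 2.07 ± 0.31, edgeR adjusted p = 0.00955). Of the unsorted genes, Frat1, which binds GSK3 in Wnt signalling, differed by -2.21 ± 0.36, Fam83f by -4.04 ± 0.85 and Chp2, a calcineurin-like partner of sodium-proton exchangers, by 2.31 ± 0.49 (edgeR adjusted p = 0.015, 0.0466 and 0.0468). Tm4sf1, Fam83f and Chp2 missed with the code as a block (edgeR adjusted p = 0.102, 0.115 and 0.121).

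Ribosomal protein and respiratory chain genes had small differences of a common sign, with 0 genes called. Of 79 cytosolic ribosomal protein genes, 78 had a negative difference and 44 of them an unadjusted p under 0.05, beside 53.4% and 10.4% of all tested genes. In edgeR 0 were called, and the list had a median of -0.22 in liver, 0.34 in testis and -0.52 as a difference. Stress testis replicates 1, 2 and 3 had list medians of 0.28, 0.53 and 0.12 relative to the control mean, all higher than any control testis library, while liver stress libraries, from -0.37 to -0.13, overlapped the controls. Without stress testis replicate 2 the median difference was -0.38. Nuclear-encoded subunits of the respiratory chain showed 72 of 76 negative differences, 32 at an unadjusted p under 0.05, beside the same 53.4% and 10.4% of all tested genes. In edgeR 0 were called, with a median of -0.14 in liver, 0.26 in testis and -0.37 as a difference. The 13 mitochondrially encoded mRNAs had medians of -0.35 and -0.47, and their list median was -1.72 in stress testis replicate 2 against -0.15 in each of the other stress testis libraries. Their median difference of 0.17 was -0.14 without that library and 0.40 without stress testis replicate 3. Gm23935, annotated as a miRNA gene, took 16.75% of all TPM in that library and 2.73% to 11.4% in the other testis libraries. The part of these features in the ribosomal and respiratory chain values was not tested.

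**Figure D4:**
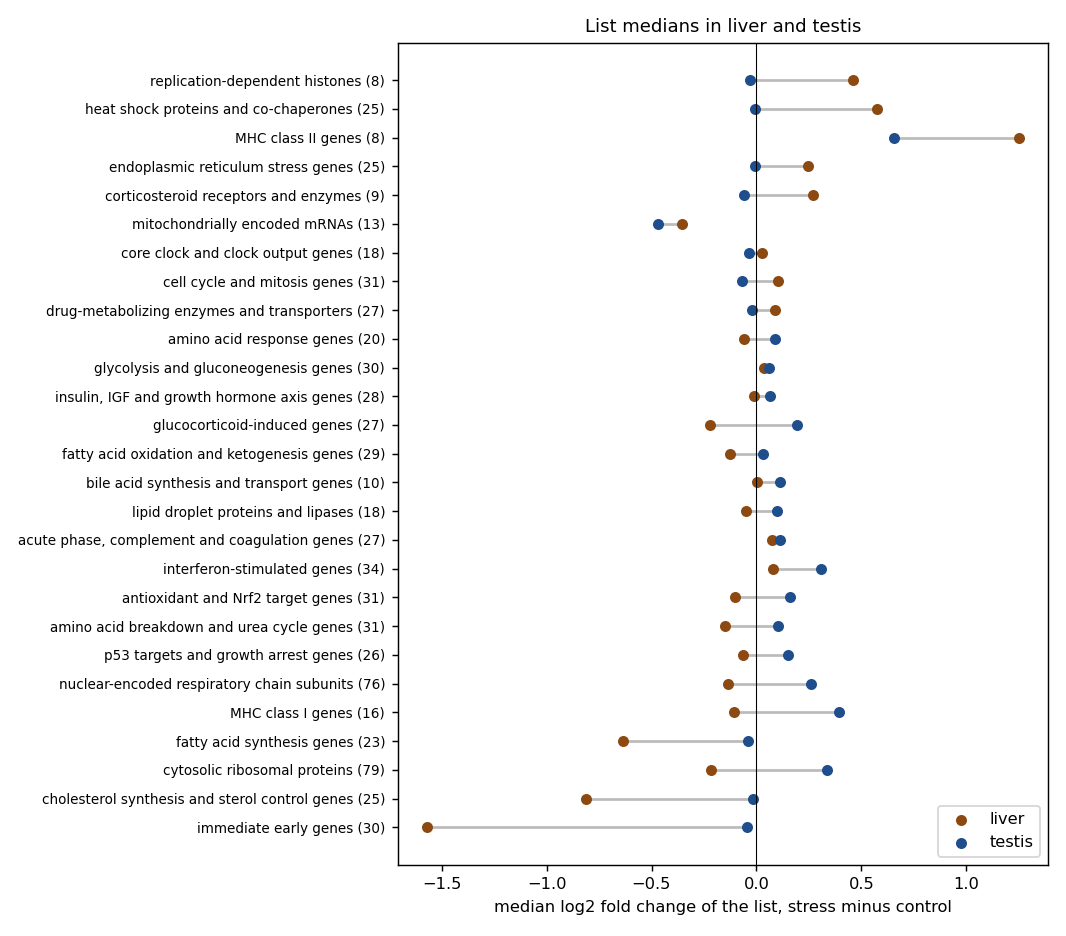
Median log2 fold change of stress over control in liver (brown) and testis (blue) for gene lists, with the number of tested members in brackets and lists ordered by the median difference. Immediate early genes (-1.57 in liver, -0.04 in testis) and cholesterol genes (-0.81 and -0.02) are low in liver and near 0 in testis, and ribosomal proteins lie on opposite sides of 0.

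**Figure D5:**
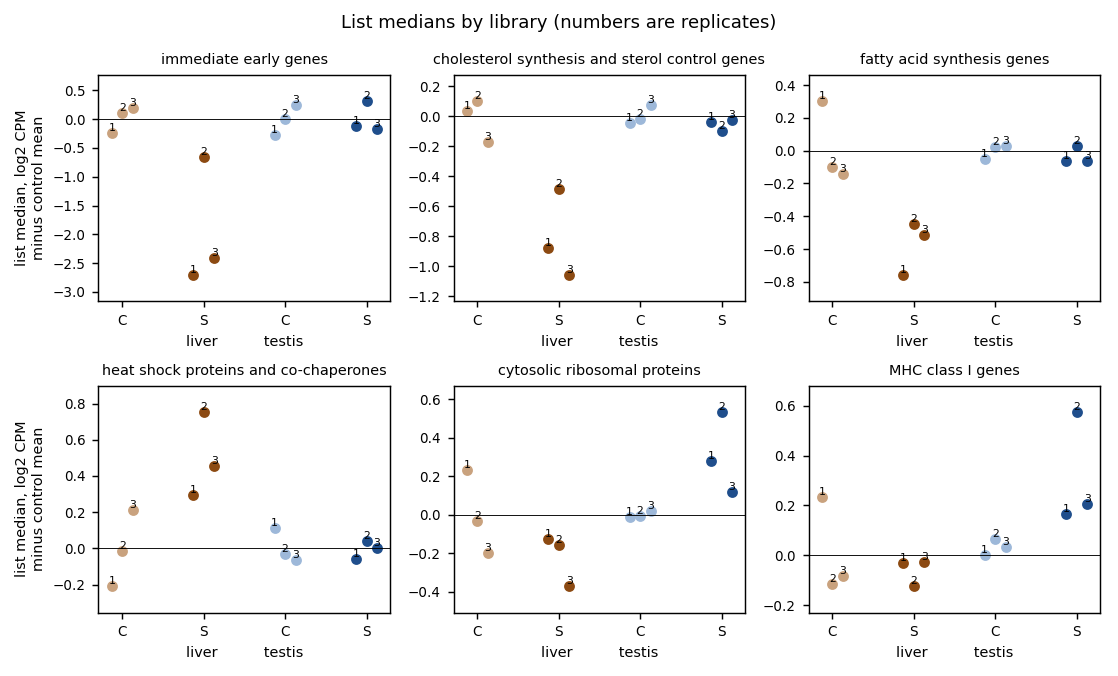
Median over list members of log2 CPM relative to the control mean of the tissue, by library, for 6 lists, with control (C) and stress (S) libraries of liver (brown) and testis (blue) and the replicate number beside each point. Stress liver replicate 2 lies nearest the controls for immediate early genes (-0.65 against -2.71 and -2.42), and stress testis replicate 2 lies highest for ribosomal proteins (0.53).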

How the data were processed

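RNA-seq libraries of liver and testis were analysed, 12 of 18, and the brain libraries were not used here. Of the table's per-sample columns, 2 (brain TPM and FPKM) were not tied to a sample and not used. The authors deposited gene counts, FPKM and TPM per library. The build is mm39 per the submitters' processing notes, and the sources used here name no aligner, counter or strand setting. The deposited counts were the input of the main test, the deposited TPM values of an alternative, and the deposited FPKM values were not used. Symbols came from GENCODE M21 by gene ID, for 34414 of 34932 genes, with 518 unmatched. That release is on GRCm38 and not on mm39, so no positions are given outside the RefSeq promoter windows, which are on GRCm38.p6. Of the 110 called genes, 77 have such a window.

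Genes passed edgeR's filterByExpr (minimum count 10) in both tissues. The 4 group means were fitted with edgeR 4.0.16 (R 4.3.3), TMM factors over 12 libraries and the quasi-likelihood test, and p-values were adjusted over all 12952 genes by Benjamini-Hochberg. The SE is the absolute log2 fold change divided by the square root of F. Printed CPM are counts relative to the library total times its TMM factor, scaled within each tissue, and marker sums use the total alone. List medians by library used a pseudocount of 0.5 CPM. Alternatives were DESeq2 1.42.0, voom and log2(TPM + 1) in limma 3.58.1, other scalings and filters, blocks and each library left out. The tests were tested on simulated counts.

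Named genes were 5 glucocorticoid genes, the 15 called genes with the largest difference in each direction (mean of 1 CPM in a group of each tissue, no overlap in at least 1 tissue), those called in testis and not in liver, and up to 4 members of each list by smallest p. Some called genes are not reported here. The members, gene lists and classes of function were chosen with earlier results of these data known. The replicates are called biological in the series' description, and the sample codes recur across liver and testis without a label that says a code marks an animal, so p-values measure the spread between these samples. Deviations of liver and testis libraries with the same code correlated at -0.016, 0.008 and 0.011 in controls and -0.022, 0.112 and 0.179 in stress. For control replicate 2 and stress replicates 2 and 3, the liver library correlated most, within its group, with the testis library of its own code. Such correlations cannot decide whether a code marks 1 animal. The main test left the code out, and an alternative used it as a block. Replicate pairs differed by more than counting noise, with chi-square per degree of freedom from 4.75 to 75.08.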

Additional observations from a re-analysis of the deposited data

Results flagged for a closer look

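The stress effect differed between liver and testis, by the test of the interaction itself in edgeR, in 59 genes that were higher and 51 that were lower in liver. Each value below is the log2 fold change in liver minus that in testis. Among the named genes with a higher effect in liver the differences were C4a 1.92, Afm 2.01, Zbtb16 3.30, Adgb 1.85, Fyb 1.78, Entpd1 1.71 and Per2 1.29. A further set of higher genes had Fras1 1.91, Epb41l3 2.07, Ctcflos 1.97, Scara5 1.99, Fkbp5 1.54, Hspa4l 1.45 and E2f7 2.48. The remaining higher genes had Tsc22d3 1.44, Stip1 0.95, Sult1e1 3.89, Coro2a 1.90, Chp2 2.31 and Alas1 1.90. For named genes with a lower effect in liver the differences were Hal -1.65, Aqp8 -3.11, Tmem37 -1.86, Acsl3 -1.14, Tchh -2.60, Scd1 -2.09 and Mrnip -1.86. A further set of lower genes had Frat1 -2.21, Socs3 -4.28, Srebf1 -1.73, Fosb -3.18, Btg1 -1.35 and Tm4sf1 -2.05. The remaining lower genes had H2-Q4 -1.66, Gal3st1 -2.52, Mvd -1.59, Atf4 -1.18, Fam83f -4.04, Fst -3.61 and Socs1 -3.35. Of the genes in these sentences, 15 passed with any 1 library left out. No explanation of these differences was tested.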

How the results depend on the processing

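Against 59 higher and 51 lower differences, DESeq2 called 310 and 341, voom 21 and 24, limma on log2(TPM + 1) 26 and 25, and no low-count filter gave 36 higher. Without both testis libraries of number 2, chosen after the data were seen, there were 12 and 11. In liver, against 399 and 408, DESeq2 called 676 and 651, the fit of each tissue alone 146 and 118, and TPM 231 lower. In testis, against 3 and 2, DESeq2 called 17 and 10, and voom and the separate fit 1 higher each. With 1 library left out the differences ranged from 12 to 92 higher and from 11 to 107 lower, the liver calls from 135 to 552 higher and from 123 to 478 lower, and the testis calls from 2 to 4 higher and from 2 to 3 lower. The causes were not tested. On the TPM scale the median difference of all genes was 0.07 in place of -0.04.

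With the sample code as a replicate block, 17 differences were higher and 22 lower, and with the replicate number within tissue as a block 77 were lower. Of the 41 called genes named by rule, 21 passed and 20 missed with the code as a block, the latter with edgeR adjusted p from 0.053 to 0.121, and 26 missed in at least 1 fit with a library left out, their largest edgeR adjusted p lying between 0.0604 and 0.137. Control and stress libraries of 1 number correlated at 0.233, 0.043 and 0.039 in liver and 0.117, 0.102 and -0.149 in testis. These values cannot decide whether the numbers mark pairs, and the main test did not use them as such. Low counts limit genes under 1 CPM in 1 organ. A gene near 0 in 1 group of an organ can pass the low-count filter there only through its other group. Sun3 and Lrrc18 did so through control liver, and Sult1e1 and Epb41l3 through stress liver.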

Other observations

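Other lists gave few or no calls. Of 31 tested genes of amino acid breakdown and the urea cycle, 25 had a negative difference, where 53.4% of all tested genes had one. Their median difference was -0.30, and Hal was the 1 member called, where 0.849% of all tested genes were. Antioxidant and Nrf2 target genes had negative differences in 24 of 31, beside the same 53.4%, with 0 called in edgeR. Their median difference was -0.22 (-0.12 without stress testis replicate 2 and -0.13 without control testis replicate 2). At an unadjusted p under 0.05 in edgeR 2 were higher and 7 lower, beside 7.13% and 10.4% of all tested genes. Interferon-stimulated genes had a positive testis value in 28 of 34, where 48% of all tested genes had a negative one. Their median difference was -0.21, with 0 called in edgeR. At an unadjusted p under 0.05 in edgeR 1 was higher and 4 were lower, beside 7.13% and 10.4% of all tested genes. The list medians were 0.09, 0.40 and 0.22 in stress testis replicates 1, 2 and 3, and the median difference was -0.12 without stress testis replicate 2 and lay between -0.40 (without stress liver replicate 1) and -0.05 (without control testis replicate 2). Replication-dependent histone genes had a median of 0.46 in liver and -0.03 in testis over 8 tested members, with 0 called in edgeR. At an unadjusted p under 0.05 in edgeR 2 were higher and 0 lower, beside 7.13% and 10.4% of all tested genes.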
